A study of Mus musculus with 7 samples.

Results

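The claudin family and the tight junction proteins that hold it were examined in the duodenum of mice labelled as carrying or lacking Ppara in the intestine. The group holds 10 of the 14795 genes of the deposited table, namely the claudins Cldn2, Cldn3, Cldn4, Cldn7, Cldn15 and Cldn23, and Ocln, Tjp1, Tjp3 and F11r. They were selected on the values of Cldn4, which had been seen to differ between the genotypes in these same libraries, and the rest of the group was taken as its family: intestinal claudins, occludin, zonula occludens proteins and a junctional adhesion molecule. All 10 members passed the filter on low values, a value above 1 in at least 3 libraries, which 13399 genes passed. Because values of this contrast led to the choice, the difference between genotypes is given for the members as a description and without a test.

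RNA of the whole duodenum came from mice of the C57BL/6 strain, 3 of them Ppara lox/lox controls and 4 of them Ppara I-KO. Ppara encodes PPARα, a nuclear receptor that binds fatty acids and switches on genes of their oxidation. All 7 mice carried the floxed Ppara allele, and in Ppara I-KO mice a Villin-Cre transgene, which is active in the intestinal epithelium, removes the floxed stretch, so muscle, stroma and leukocytes in the samples keep the gene. According to the study's methods the mice were males on a high-fat diet and the controls were littermates, while the labels give neither diet nor age. All mice were kept in a cycle of 12 h light and 12 h dark. On the day of sampling food was taken away at 12 h by the clock and returned at 18 h, and the mice were killed at midnight.

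Tight junctions seal the space between neighbouring epithelial cells just below the brush border. Claudins are the membrane proteins that form the strands of the seal, and the claudins a cell makes decide whether the strand is tight or lets small ions through. Occludin and junctional adhesion molecules sit in the same membrane region, and the zonula occludens proteins anchor all of them to the actin cytoskeleton from the inside. In the small intestine the pore-forming claudins carry sodium back into the lumen, where it is needed for the uptake of glucose and other nutrients.

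To give the context of the genes, the 250 bases before the RefSeq start site of Cldn4, of its neighbour Cldn3 and of Cldn2 are shown. They were chosen because Cldn4 had the largest difference between genotypes of the members, Cldn3 lies beside it with a smaller one, and Cldn2 varied most among mice. Capitals mark matches, on either strand, to the nuclear receptor half-site AGGTCA, the GC box GGGCGG, the TATA box TATAAA and the CDX site TTTATG. The sequences are from build GRCm38.p6, in the direction of transcription, and lie at chr5:134946935-134947184 on the minus strand for Cldn4, at chr5:134985964-134986213 on the plus strand for Cldn3 and at chrX:139800558-139800807 on the plus strand for Cldn2.
Cldn4: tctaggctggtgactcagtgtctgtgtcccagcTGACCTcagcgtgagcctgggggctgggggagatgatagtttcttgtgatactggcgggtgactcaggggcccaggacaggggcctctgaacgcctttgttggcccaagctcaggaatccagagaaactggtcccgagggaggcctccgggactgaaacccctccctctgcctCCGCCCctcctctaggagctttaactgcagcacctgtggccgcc
Cldn3: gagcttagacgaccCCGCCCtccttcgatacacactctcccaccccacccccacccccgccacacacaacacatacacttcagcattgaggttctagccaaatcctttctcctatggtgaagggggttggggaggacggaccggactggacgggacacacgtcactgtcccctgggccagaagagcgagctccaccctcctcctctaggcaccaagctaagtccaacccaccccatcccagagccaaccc
Cldn2: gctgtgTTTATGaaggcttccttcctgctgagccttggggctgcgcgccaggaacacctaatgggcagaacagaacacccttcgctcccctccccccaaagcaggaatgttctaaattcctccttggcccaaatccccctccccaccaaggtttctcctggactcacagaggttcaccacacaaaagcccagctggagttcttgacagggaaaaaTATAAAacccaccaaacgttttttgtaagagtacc
The Cldn4 window held 1 half-site, 217 bases before the start, and 1 GC box 44 bases before it. The Cldn3 window held 1 GC box, 236 bases before the start, and no match to the other motifs. The Cldn2 window held a TATA box 35 bases and a CDX site 244 bases before the start, and neither the half-site nor the GC box. Among 32851 windows of the same length in the RefSeq promoters, 14.0% held the half-site, 32.7% the GC box, 12.4% the TATA box and 10.8% the CDX site. PPARα binds, together with RXR, direct repeats of the half-site with a single base between them. The best match to such a repeat had 4 mismatches in the Cldn4 window, 3 in the Cldn3 window and 6 in the Cldn2 window, and 21.3% of the windows held a match with at most 3. The half-site was not particular to Cldn4, since windows of the members Tjp3, Cldn7 and Ocln also held it. An Ocln window had the closest repeat of the members, with 2 mismatches, and 3.24% of all windows held a match with at most 2. These letters describe the windows and say nothing about binding.

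Values are read counts scaled by the authors to an adjusted library size (normalized counts, a form of CPM). The libraries held between 20741409 and 25885304 reads on the listed genes, as read from the step between neighbouring low values. By limma with Benjamini-Hochberg adjustment, the genotypes differed at an adjusted p of 0.05 in 4 of 13399 genes, which is 0.0299% of them, 3 higher and 1 lower in I-KO. At an unadjusted p of 0.05 the number was 635, or 4.74%, of which 311 were higher. Every I-KO library was above every lox/lox library in 2.91% of the tested genes and below in 3.28%. Ppara itself had 53.42, 49.29 and 63.18 in lox/lox 1 to 3, and 33.05, 40.58, 47.51 and 69.9 in I-KO 1 to 4. The groups overlapped, the library labelled I-KO 4 was the highest of all 7, and the difference was not past the spread (exact two-sided permutation test, p = 0.4, with 0.0286 the smallest p possible). The table counts the whole gene and does not separate the deleted stretch, so these values do not check the deletion. A further fact of the libraries is that I-KO 1 stood apart in 15 pancreatic acinar genes, whose sum was 439.88 there against between 27.53 and 100.99 in the other 6. All 8 enterocyte markers, which mark the small intestine but not its segment, were in the table with a sum between 51298 and 68663. Of 7 markers of Brunner glands, the mucous glands of the proximal duodenum, and of the stomach, 2 were in the table, with a sum of at most 3.27, so the markers used here do not check the label of duodenum. The summed level of 6 fibroblast markers was between 260.95 and 371.91 in lox/lox and between 353.98 and 387.72 in I-KO mice. By log2 difference 5 of these markers were above 0 and 1 below. All 6 endothelial and all 6 smooth muscle markers were above 0, and of 7 leukocyte markers 3 were above and 4 below. The sums of the genotypes overlapped in each of these lists. At an unadjusted p of 0.05 (limma), 1 endothelial and 1 fibroblast marker were higher in I-KO, beside 4.74% of all tested genes. Of the smooth muscle and leukocyte markers 0 were at that threshold, and 1 of the 8 enterocyte markers was lower. The part of these cells in the members' values was not tested.

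Cldn4 stood at a mean of 62.2 ± 4.03 (SD, n = 3) in Ppara lox/lox and 104 ± 19.4 (SD, n = 4) in Ppara I-KO mice, a ratio of 1.66. It encodes a barrier-forming claudin that, like Cldn3, is a receptor for the enterotoxin of Clostridium perfringens. The lox/lox libraries held 66.89, 60.01 and 59.8, and the I-KO libraries 106.66, 114.86, 117.43 and 75.32. The groups did not overlap, and the library labelled I-KO 4, which also had the highest Ppara, was closest to the controls. On the log2(value + 1) scale the difference was 0.71 ± 0.15 (SE), and the 95% interval of the fit ran from 0.36 to 1.05. Because Cldn4 was picked on this same difference, the interval is a description and not a test. The difference may also be overstated by the choice. Without the library labelled I-KO 4 it was 0.85 ± 0.09, and without I-KO 1 it was 0.69 ± 0.17.

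Set against other epithelial genes, the same Cldn4 values that led to the choice can only be described. As a percentage of Cldn3, Cldn4 was 25.6, 20.4 and 21.6 in lox/lox 1 to 3 and 35.5, 39.8, 41.3 and 25.8 in I-KO 1 to 4. As a percentage of the pan-epithelial gene Epcam it was between 4.36 and 5.06 in lox/lox and between 6.20 and 8.30 in I-KO mice. Against Cldn3, the library labelled I-KO 4 was almost level with lox/lox 1. In bulk tissue, more cells with a gene and more of its RNA per cell cannot be told apart. Cldn4 is also made by ductal cells and by the epithelium over lymphoid follicles. The summed level of 7 markers of M cells and follicle-associated epithelium was between 124.84 and 151.03 in lox/lox and between 141.42 and 165 in I-KO mice, and that of 6 markers of pancreatic duct and biliary cells was between 128.16 and 149.08 and between 112.93 and 163.66. None of these 13 markers was listed at 0 in all libraries. Of the 11 tested, 0 were past an unadjusted p of 0.05 (limma), beside 4.74% of all tested genes. The ranges overlapped in both lists, and the part of these markers in the Cldn4 values was not tested.

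**Figure D1:**
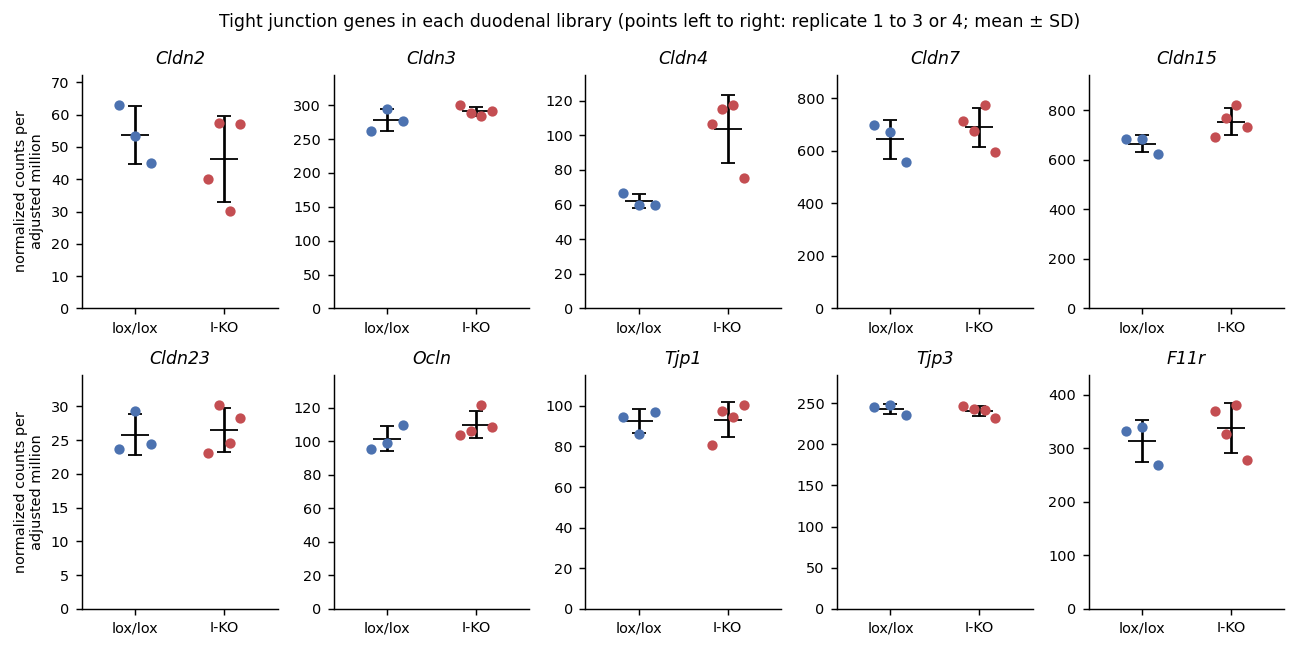
Each panel plots 1 gene, with normalized counts (CPM of an adjusted library size) on an axis from 0 and the 3 lox/lox (blue) and 4 I-KO (red) libraries as points; bars are the mean ± SD. Cldn4 is above 106 in 3 I-KO libraries and at 75.32 in the fourth, against 66.89 or less in lox/lox, while Tjp3 is nearly level in all 7.

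Among the pore-forming claudins, Cldn15 was slightly higher and Cldn2 varied widely. Cldn15, which forms the main sodium pore of the small intestine, had 684.49, 686.04 and 624.14 in lox/lox 1 to 3 and 692.56, 769.74, 821.1 and 733.4 in I-KO 1 to 4. All I-KO libraries were above all lox/lox libraries, although I-KO 1 exceeded the highest control by less than the controls differed among themselves. The log2 difference was 0.18 ± 0.09 (SE), with a 95% interval from -0.02 to 0.38. Cldn4 and Cldn15 were thus 2 of 10 members without overlap in that direction, beside 2.91% of all tested genes, and none was without overlap in the other direction, beside 3.28%. Again the values of Cldn4 were known when the members were chosen.

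Cldn2 forms a pore for cations and water and is known from crypts and from leaky epithelia. It had 62.94, 53.36 and 44.91 in lox/lox 1 to 3 and 40.04, 57.23, 30.24 and 57.17 in I-KO 1 to 4. The groups overlapped, with the lowest value in I-KO 3 and the highest in lox/lox 1. The log2 difference was -0.25 ± 0.22 (SE), and without I-KO 3 it was -0.07. The spread of Cldn2 within genotypes was the widest of the members, an SD of 0.37 on the log2 scale, and 96.6% of the tested genes had a smaller one. Set against the other pore gene, Cldn2 was between 7.20% and 9.20% of Cldn15 in lox/lox and between 3.68% and 7.80% in I-KO mice, and these ranges overlapped.

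The remaining claudins differed little between the genotypes. Cldn3, a barrier-forming claudin, had 261.31, 293.88 and 277.22 in lox/lox and 300.21, 288.88, 284.54 and 291.84 in I-KO mice, a log2 difference of 0.07 ± 0.08 (SE). The groups overlapped, and the 4 I-KO libraries lay closer together than the controls. Cldn7, which is found along the lateral membrane as well as in the junction, had 700.49, 672.78 and 557.51 in lox/lox and 714.59, 674.12, 774.65 and 595.79 in I-KO mice, with a log2 difference of 0.10 ± 0.12, which was 0.00038 without lox/lox 3. In each group 1 library was low, lox/lox 3 and the library labelled I-KO 4. In normalized counts, not divided by length, Cldn23 was the lowest of the 6 member claudins in every library. It had 23.65, 29.3 and 24.48 in lox/lox and 23.04, 30.17, 24.63 and 28.23 in I-KO mice, a log2 difference of 0.04 ± 0.12. Its values rest on between 465 and 768 reads per library, and the groups overlapped fully.

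Occludin, the adhesion molecule and the scaffolds showed the same small differences. Ocln, whose protein runs in the strands beside the claudins, had 95.58, 98.92 and 109.93 in lox/lox and 103.55, 106.06, 121.4 and 108.63 in I-KO mice. The log2 difference was 0.11 ± 0.09 (SE), and lox/lox 3 lay above 3 of the I-KO libraries. F11r, the junctional adhesion molecule A, had 332.84, 339.05 and 267.91 in lox/lox and 369.41, 325.49, 379.88 and 278.03 in I-KO mice, a log2 difference of 0.11 ± 0.13, which was -0.00097 without lox/lox 3. Its low libraries were those of Cldn7. Tjp1, the widely expressed zonula occludens scaffold, had 94.39, 86.01 and 97.08 in lox/lox and 80.56, 97.46, 94.76 and 100.28 in I-KO mice, a log2 difference of 0.01 ± 0.10. Tjp3, its epithelial relative, had 244.82, 247.42 and 235.54 in lox/lox and 246.42, 243.43, 241.48 and 232.44 in I-KO mice, a log2 difference of -0.01 ± 0.07. The groups of both scaffolds overlapped, and only 0.687% of the tested genes had a smaller spread within genotypes than Tjp3.

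Over the 10 members the median log2 difference was 0.09, with 8 above 0. Over all tested genes the median was 0.00169, with 50.6% above 0. Cldn4, whose values led to the choice, is among the 8. The median was also 0.09 for 8 epithelial markers (5 above 0, 3 below) and 0.17 for 6 upper villus markers (6 above 0). It was -0.01 for 8 crypt and cycling markers (3 above 0, 5 below). These lists were not compared by a test. Members share the epithelial cells that make them, and they are not replicates of the condition. With library totals as the scale the median of all genes moved to -0.03 and that of the members to 0.05, and at an unadjusted p of 0.05 156 genes were then higher and 408 lower in I-KO.

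**Figure D2:**
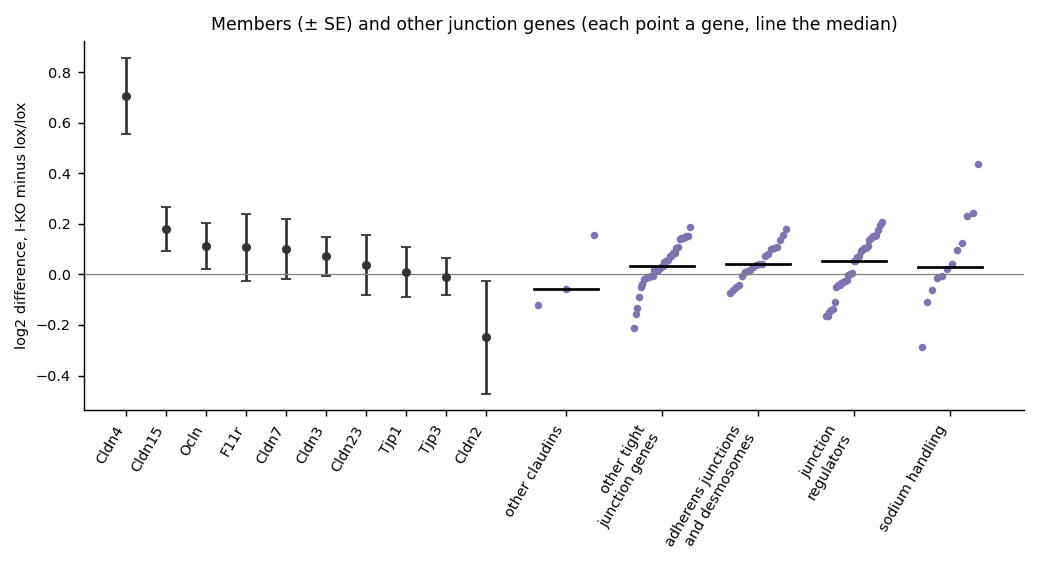
The vertical axis is the log2 difference, I-KO minus lox/lox. The 10 members stand at the left with their SE, and each point of the 5 lists at the right is a gene with the list median as a line; Cldn4 at 0.71 lies above every other gene shown, of which the highest is at 0.44.

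Since the genes differ in length, levels were compared as normalized counts per kilobase of exon. Cldn7, at 344 ± 37.5 per kb (SD, n = 7), and Cldn15, at 337 ± 30.5, stood at the top and did not differ beyond their spread (log2 difference 0.03, Cldn7 higher in 4 of 7 libraries, exact two-sided sign-flip permutation test, adjusted p = 0.625). Cldn3 followed at 227 ± 10.2, F11r at 123 ± 15.8 and Tjp3 at 65.1 ± 1.52. Cldn4 came next at 47.3 ± 14.4, below Tjp3 in 7 of 7 libraries. Ocln at 25.2 ± 1.99, Cldn2 at 14.9 ± 3.46, Cldn23 at 14.2 ± 1.58 and Tjp1 at 11.9 ± 0.902 made up the lower end. Of the 9 pairs of neighbours in this order, 7 were in the same order in all 7 libraries, each with p = 0.0156, the smallest possible, and an adjusted p of 0.0201 in the exact permutation test. The other 2 were Cldn7 with Cldn15 and Cldn2 with Cldn23 (log2 difference 0.04, Cldn2 higher in 5 of 7, adjusted p = 0.625 in the exact permutation test). In the I-KO libraries alone Cldn15 stood before Cldn7 and Cldn23 before Cldn2. The order was taken from these same values, so the pairs and their directions were not set beforehand. The p-values therefore show only how steady each step was over the libraries. The steps from Tjp3 to Cldn4 and from Cldn4 to Ocln also use the values of Cldn4 that led to the choice.

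**Figure D3:**
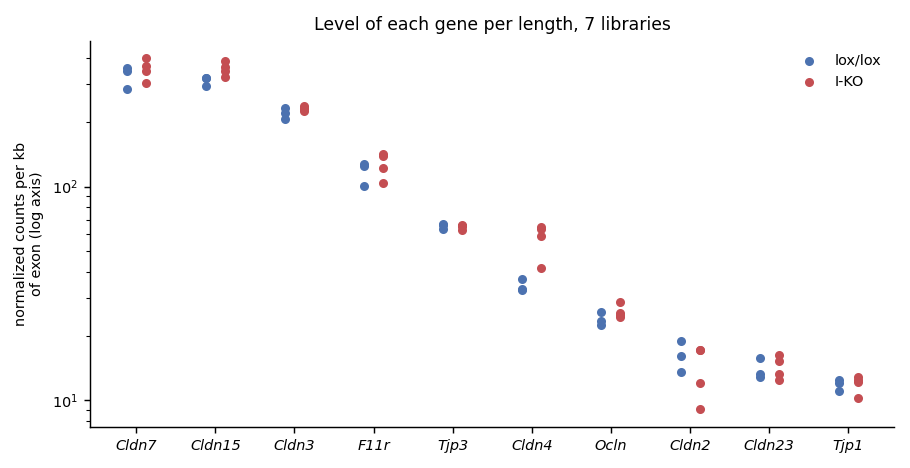
The level of each member is plotted on a log axis as normalized counts per kb of exon, 1 point per library, with lox/lox in blue and I-KO in red. The members span from about 12 per kb for Tjp1 to above 300 for Cldn7 and Cldn15, and in Cldn4 the colours separate.

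Beyond these genes, the wider junction was examined in 5 lists. By limma, none of the 102 tested genes passed the adjusted threshold, beside 0.0299% of all tested genes. With so small a share over all genes, a count of 0 says little about the lists. At an unadjusted p of 0.05 the count was also 0, beside 4.74%. The median log2 difference of the 102 genes was 0.04, with 64 above 0, beside 50.6% of all tested genes. Every I-KO library was above every lox/lox library in 2 of the 102, beside 2.91%, and below in 1, beside 3.28%. Of 18 other claudins, 4 were in the table and 3 were tested. The most abundant were Cldn25, a symbol that RefSeq also gives as an older name of other loci so that its identity is uncertain, at 66.3 ± 4.17 (SD, n = 3) in lox/lox and 63.7 ± 4.61 (n = 4) in I-KO mice, and Cldn12, at 36.1 ± 3.33 and 33.3 ± 5.58. Neither differed by more than its spread.

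Of 36 other tight junction genes 34 were tested, 22 above and 12 below 0, with a median log2 difference of 0.03. Split by place, the 12 tested membrane proteins had a median of 0.00444 and the 22 tested plaque proteins, which bind the junction from inside, one of 0.05. Cgn, which encodes the plaque protein cingulin, was at 301 ± 15.9 in lox/lox and 313 ± 23.1 in I-KO mice. Lsr, which encodes a protein of the corners where several cells meet, was at 181 ± 16.2 and 184 ± 11.2. The smallest unadjusted p of this list was 0.0567 (limma).

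Of 21 genes of adherens junctions and desmosomes, the belts below the tight junction, 20 were tested and 15 were above 0, with a median of 0.04. Cdh17, an intestinal cadherin, was at 1755 ± 221 in lox/lox and 1692 ± 141 in I-KO mice. Epcam, which binds and stabilizes claudin-7, was at 1334 ± 135 and 1406 ± 159. Of 34 regulators of junctions, 33 were tested, 19 of them above 0, with a median of 0.05. The 5 genes of the membrane protease system that trims Epcam and claudins all lay above 0, between 0.00175 and 0.20, beside 50.6% of all tested genes. Of 8 contraction genes in the same list 6 were above 0 and 2 below, and of 6 kinases 3 were above and 3 below. The 14 tested transcription factors had a median of -0.02, with 5 above 0 and 9 below. Ezr, which links the membrane to actin, was at 916 ± 102 and 1058 ± 103, and Hnf4a, an enterocyte transcription factor, at 827 ± 41.7 and 816 ± 73.2.

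The 12 genes of sodium handling, listed because claudin pores supply sodium to the lumen, had a median log2 difference of 0.03 with 7 above 0. Slc5a1, the sodium-coupled glucose transporter of the brush border, was at 3501 ± 680 in lox/lox and 4109 ± 468 in I-KO mice, a log2 difference of 0.24 ± 0.15 (SE). The groups overlapped, and the difference was not past either threshold (limma, unadjusted p = 0.130, adjusted p = 0.954 over all genes).

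Cldn4 lies on chromosome 5 at 134945119 to 134946934 on the minus strand of GRCm38, and Cldn3, its nearest relative in the genome, begins 39.28 kb further on. The other member on this chromosome, Cldn15, begins 2.02 Mb away. Of 22 other tested genes within 500 kb, 12 were above and 10 below 0, the median log2 difference was 0.03, and none was past the adjusted threshold. The nearest on the lower side was Wbscr27, a gene for a methyltransferase-like protein, which ends 2.482 kb away on the opposite strand. It held 4.05, 4.5 and 4.16 in lox/lox and 4.93, 5.3, 5.3 and 5.62 in I-KO mice. The groups did not overlap and the log2 difference was 0.26 ± 0.08 (SE), with an adjusted p = 0.830 over all genes (limma). It was the only one of the 22 at an unadjusted p of 0.05, beside 4.74% of all tested genes. Of the 22 genes, Wbscr27 included, 2 had every I-KO library above every lox/lox library, beside 2.91% of all tested genes. Another 3 had every I-KO library below, beside 3.28%. The nearest on the other side after Cldn3 was Abhd11, 62.218 kb away, at 49.0 ± 5.94 and 48.0 ± 1.88 with a log2 difference of -0.02.

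**Figure D4:**
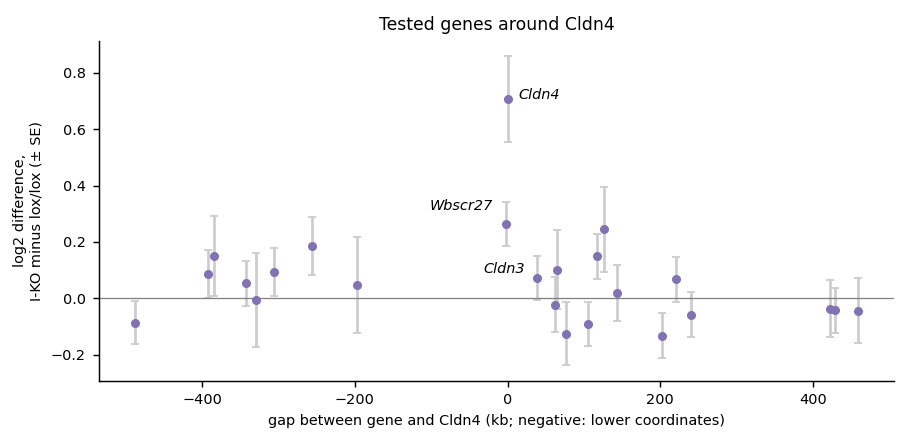
The horizontal axis is the gap in kb between each tested gene and Cldn4, negative towards lower coordinates, and the vertical axis the log2 difference, I-KO minus lox/lox, with its SE. Cldn4 is at 0.71 and Wbscr27 at 0.26, and the other genes, Cldn3 included, lie between -0.13 and 0.24.

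The genes whose log2 values followed Cldn4 most closely over the 7 libraries were Aifm2 (Pearson's r = 0.973), Gprc5a (r = 0.972), Nxf7 (r = 0.969), Lama5 (r = 0.961) and Dennd3 (r = 0.957). In all, 35 genes were above 0.9. These values describe the likeness only, and they contain the difference between the genotypes, since in each of the 5 genes every I-KO library was above every lox/lox library. Gprc5a, which encodes an orphan receptor induced by retinoic acid, had 60.23, 54.52 and 48.91 in lox/lox and 86.59, 81.39, 95.55 and 61.01 in I-KO mice. None of the 5 was past the adjusted threshold (limma).

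Duodenal pieces can differ in how much crypt and villus they hold. The summed level of 8 crypt and cycling markers, such as Olfm4 and Lgr5, ran from 578.99 to 669.18 in lox/lox and from 426.13 to 767.09 in I-KO mice, that of 6 upper villus markers from 29155 to 35487 and from 29451 to 41677, and that of 8 epithelial markers from 11968 to 14602 and from 12678 to 15550. None of these markers was listed at 0 in all libraries, and the sums of the groups overlapped in all 3 lists. Gene by gene, all 6 upper villus markers had a log2 difference above 0, with a median of 0.17. None of them was at an unadjusted p of 0.05 (limma). Of the 8 crypt and cycling markers 3 were above 0 and 5 below. In that list 1 marker was higher at an unadjusted p of 0.014 (limma), beside 4.74% of all tested genes at 0.05. Whether the genotypes differed in crypt or villus content was not tested. After the data had been seen, the 8 members whose groups overlapped were set against the mean log2 level of each marker list, in 24 relations. Cldn7 followed the upper villus markers (r = 0.929, exact permutation p = 0.000595, adjusted p = 0.0143; Spearman's rho = 1, exact permutation p = 0.000397, adjusted p = 0.00952; n = 7). The relation was r = 0.928 without the 2 libraries farthest from the median and r = 0.919 within genotypes. Cldn7 also followed the epithelial markers (r = 0.952, exact permutation p = 0.00179, adjusted p = 0.0214; rho = 0.893, exact permutation p = 0.0123, adjusted p = 0.0984), with r = 0.736 without the 2 farthest and 0.947 within genotypes. The 2 scores share Krt20. The relations were not rerun with library totals as the scale. Those totals were, like Cldn7, highest in I-KO 3 (1098618) and lowest in lox/lox 3 (969589). The match in rank holds for the mean log2 level. By the summed upper villus level lox/lox 3, at 32314, was above lox/lox 2, at 29155, while its Cldn7 was the lowest.

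No other relation passed the adjustment. F11r against upper villus markers had r = 0.876 (exact permutation p = 0.00694, adjusted p = 0.0556; rho = 0.893, exact permutation p = 0.0123, adjusted p = 0.0984) and r = 0.821 without the 2 farthest. F11r against epithelial markers had r = 0.881 (exact permutation p = 0.0101, adjusted p = 0.0607; rho = 0.714, exact permutation p = 0.0881, adjusted p = 0.352), and r = 0.307 without the 2 farthest, so that it rests on those libraries. Cldn2 against crypt markers had r = 0.765 (exact permutation p = 0.0438, adjusted p = 0.175; rho = 0.786, exact permutation p = 0.048, adjusted p = 0.288), r = 0.749 without the 2 farthest and 0.850 within genotypes. Cldn23 against crypt markers had r = 0.865 (exact permutation p = 0.0246, adjusted p = 0.118; rho = 0.714, exact permutation p = 0.0881, adjusted p = 0.352). Points of a library share its normalization. Cldn4 and Cldn15 were left out because their groups did not overlap.

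**Figure D5:**
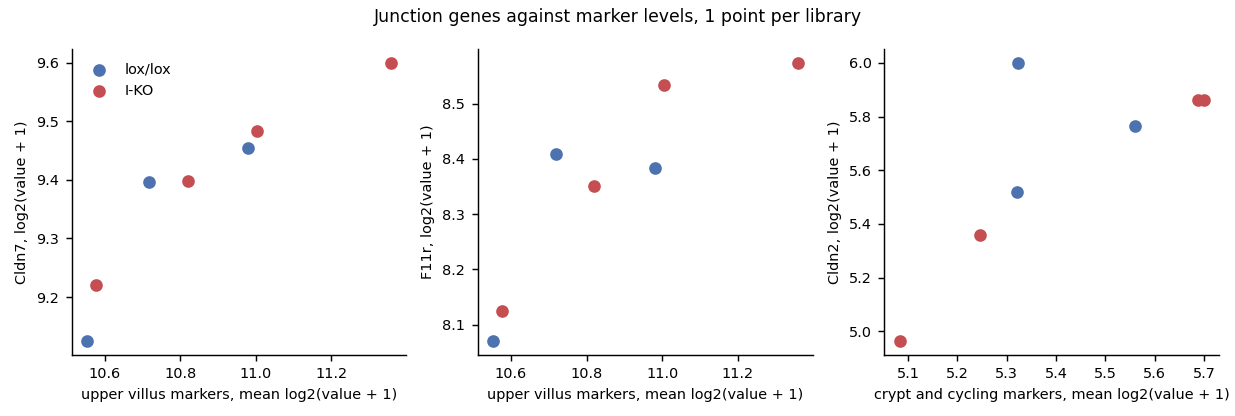
Each point is a library (lox/lox blue, I-KO red). The vertical axes are log2(value + 1) of Cldn7, F11r and Cldn2, and the horizontal axes the mean log2(value + 1) of upper villus markers (left and middle) or of crypt and cycling markers (right). Cldn7 has the same rank order as the mean log2 level of the upper villus markers in all 7 libraries.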

How the data were processed

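Duodenal RNA of 3 Ppara lox/lox and 4 Ppara I-KO mice was sequenced with a stranded mRNA kit as single reads of 100 bases. The submitters' processing notes name FastQC 0.11.2, TopHat2 2.0.13, Picard 1.80, HTSeq 0.6.1, edgeR and the mm10 build; whether counting used strand is not given in the sources used here. The values the authors deposited are a normalized signal, CPM scaled by an adjusted library size, with 2 decimals, and the table lists 14795 genes. A line without a gene name was dropped. Steps between low values give whole reads only within the rounding, and in 5 libraries under 95% of low values lie within 0.1 of a step, so no count test was run. A limma model (version 3.58.1, R 4.3.3) with a genotype term alone was applied to log2(value + 1) of the 13399 genes that exceeded 1 in 3 or more libraries, and p-values are two-sided with Benjamini-Hochberg adjustment at 0.05. The fit was tested on simulated data. The study's methods give the controls as littermates; which of these mice shared a litter or a cage is not given in the sources used here.

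The members and gene lists were chosen with earlier results of these data known. The rule for naming genes takes every member, Ppara, list genes past the adjusted and then the unadjusted threshold with the 2 most abundant of each list, the nearest genes to Cldn4, and the 5 genes most like it. A gene that this rule names is not reported here. Of the table's symbols, 13922 were found in GENCODE M21 on GRCm38 (mm10), and 758 further ones were matched through RefSeq synonyms. Exon lengths are the union of all annotated exons. Alternatives were other scalings, filters, pseudocounts, a robust trended fit, a replicate block, leaving out each library, and windows of 200 and 1000 kb around Cldn4. Python 3.11.15 with pandas 2.3.3, scipy and matplotlib 3.10.9 made tables and figures.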

Additional observations from a re-analysis of the deposited data

Results flagged for a closer look

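In the 4 I-KO libraries the summed level of 15 pancreatic acinar markers stood out, because the gap between I-KO 1 and the nearest other library was 0.956 of the whole range, which is above Dixon's 95% critical value for 4 samples. The 10 members, Ppara and the 16 marker sums were searched in this way, 27 quantities in all, of which chance flags about 1 in 20. None of the members was flagged in the I-KO group, and the lox/lox group of 3 is too small for the rule. Without I-KO 1 the log2 difference of Cldn4 was 0.69 and that of Cldn15 0.22.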

How the results depend on the processing

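The log2 differences of the members moved by less than 1 residual SD under all 15 alternatives, except that of Tjp3, which was at -0.05 with column totals. Without lox/lox 3, however, that of Cldn7 went from 0.10 to 0.00038 and that of F11r from 0.11 to -0.00097. The sign changed under 6 alternatives for Tjp1, 3 for Tjp3, 2 for Cldn23 and 1 for F11r, all near 0. Leaving out each library in turn, Cldn4 ranged from 0.64 to 0.85 (highest without the library labelled I-KO 4), Cldn15 from 0.14 to 0.22, Cldn2 from -0.37 to -0.07, and the median of the members from 0.02 to 0.12 (lowest without lox/lox 3). Ppara ranged from -0.45 without the library labelled I-KO 4 to -0.10 without I-KO 1. The junction lists held 0 genes past the adjusted threshold under every alternative run, and between 0 and 4 at an unadjusted p of 0.05. Genes past the adjusted threshold over the whole table numbered 4, between 3 and 5 when a library was left out, 9 with an intensity trend and robust fit, and 635 at an unadjusted p of 0.05; the cause was not tested. In the I-KO libraries alone 6 of 10 members kept their rank of level, and with lox/lox only or the longest transcript all 10 did. Within 200 and 1000 kb of Cldn4, 0 genes passed.

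Same-numbered libraries of the groups had correlations of deviations of -0.01, 0.18 and -0.01, and not every library correlated best with its own number, so they share only a number. In the fit with the replicate block, in which the library labelled I-KO 4 has no partner and drops out, Cldn4 was at 0.85, Cldn15 at 0.19, the median of the members at 0.09, Ppara at -0.45, the junction lists at 0 and the whole table at 3 genes. The planned count tests by edgeR and DESeq2 were not run, since the values are not counts. The members rest on between 465 reads (Cldn23) and 19595 reads (Cldn15) per library, and the parts of counting error and of variation between mice in their spread were not tested. The median half-width of the 95% intervals over all genes was 0.24.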
